A study of Homo sapiens with 4 samples.

Results

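The genes described here code for the nuclear-encoded subunits of the mitochondrial respiratory chain and ATP synthase, with cytochrome c and a few assembly factors. They are the 89 of 14297 gene probes whose name in the array design begins with NDUF, UQCR or ATP5, with SDH and a letter from A to D, or with COX and a digit from 4 to 8, or is CYC1 or CYCS. Each gene had 1 probe. The design uses older symbols for 22 of them, and where a current symbol differs it is given in brackets at first use. By complex, 37 of the probes stood for subunits of complex I, 4 for complex II, 8 for complex III including CYC1, 17 for complex IV and 14 for complex V. The others were CYCS, 4 assembly factors, and 4 genes that fit the rule by name but were not counted as subunits. These are COX4NB (EMC8) and the succinate dehydrogenase pseudogene copies SDHALP1 (SDHAP1), SDHALP2 (SDHAP2) and SDHAP3.

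K562 is a human erythroleukemia cell line, here treated for 4 h with AC-1041, which the study describes as a thalidomide analog. Each of 4 two-colour arrays received RNA from both kinds of cells, and the comparison asks which transcripts differ after treatment. Cy5 labelled the treated RNA on arrays 1 and 2, and Cy3 labelled it on arrays 3 and 4. The sample labels call the control cells untreated and give no dose. The methods state a micromolar concentration of AC-1041 and name a DMSO control. The samples are replicate samples of 1 cell line, and the sources do not say which of them went on which array, so the p-values measure the spread between arrays, which may be technical. In such bulk RNA, fewer cells of a kind and less RNA per cell cannot be told apart. Of 16 erythroid and megakaryocytic genes on the array, 15 were well above background in either channel on every array. The same held for 2 of 8 lymphoid, 0 of 4 monocyte and 2 of 5 epithelial genes.

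The respiratory chain passes electrons from NADH (complex I) and succinate (complex II) through ubiquinone to complex III, then through cytochrome c to complex IV, where oxygen is reduced to water. Complexes I, III and IV pump protons across the inner mitochondrial membrane, and complex V, the ATP synthase, uses the return of the protons to make ATP. Most subunits are coded in the nucleus, and a small set in complexes I, III, IV and V is coded by mitochondrial DNA.

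The probes are 60 bases long. According to the deposited positions (hg18), 63 of the 88 that could be placed lie in 1 block and 25 are spread over more than 60 genomic bases, that is, across introns. The genes for the 2 complex I assembly factors that moved in opposite directions, NDUFAF1 and NDUFA12L (NDUFAF2), and for the delta subunit of the ATP synthase, ATP5D (ATP5F1D), were measured by the following probes, shown whole in lower case, 5′ to 3′, to make clear which stretch of each transcript the values below refer to. The NDUFAF1 probe maps to chr15:39467006-39467065 on the minus strand, the ATP5D probe to chr19:1195337-1195396 on the plus strand, and the NDUFA12L probe is spread over 127802 bases from position 60276915 to position 60404716 on the plus strand of chromosome 5.
NDUFAF1: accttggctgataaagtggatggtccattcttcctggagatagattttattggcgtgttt
NDUFA12L: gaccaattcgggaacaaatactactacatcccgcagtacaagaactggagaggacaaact
ATP5D: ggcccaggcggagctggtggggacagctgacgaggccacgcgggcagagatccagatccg

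The 3 genes for subunit c of the ATP synthase, ATP5G1 (ATP5MC1), ATP5G2 (ATP5MC2) and ATP5G3 (ATP5MC3), code for the same mature protein and differ in the targeting sequence that is cut off. The first 30 bases of their probes are shown because only ATP5G3 passed the test. No run of more than 6 bases was shared by any pair of these whole probes, and over all 89 probes the longest shared run was 12 bases.
ATP5G1: ttattcatttctccagctctgatccgctgt
ATP5G2: tgtctgatggtagcctttctcatcctcttt
ATP5G3: ccattcaaaggaagaagatggtgctactat

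The spots of these genes differed from the rest of the array in 2 respects that the choice of genes did not use. Their median log2 intensity was 15.8, against 11.5 for all probes tested, and Feature Extraction marked 40 of the 89 (44.9%) as outliers on array 1, against 8.08% of all probes there. Marked spots were left out. Of the 89 probes, 83 stood well above background on 2 or more arrays in either channel, and 81 could be tested, 43 of them on 4 arrays and 38 on 3. For these 38 the missing array was array 1, so the Cy5 orientation rests on array 2 alone. The 6 that did not pass this filter were the probes listed for COX4I2, COX6A1, COX7A1, NDUFA4L2 (COXFA4L2), NDUFS4 and SDHALP2. NDUFS6 and COX6B2 were bright enough but had unmarked spots on 2 arrays only. NDUFS6 had log2 ratios of -0.65 and -0.35 on arrays 3 and 4, and COX6B2 had 0.48 on array 2 and -1.02 on array 4.

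Most respiratory chain genes differed little between AC-1041-treated and control cells. Of the 81 genes tested, 2 were higher and 7 were lower after treatment, with adjusted p-values under 0.05 (limma with a dye term, Benjamini-Hochberg over all 8852 probes tested). Over all probes tested 37.4% were called, 24.3% as higher and 13% as lower. The median over the 81 genes of the log2 ratio, treated to control, was -0.06, with a range from -0.49 to 0.32, while all probes tested had a median of 0.02 and a range from -1.55 to 2.62. The median over the 81 genes depended on the normalization, and it was lower with median centring (last section). Bright probes were called less often in general. Among probes with a mean log2 intensity of at least 15, 17.9% were called over the array, and 1 of the 55 respiratory chain genes of that brightness was called. For 80 of the 81 genes (98.8%) the whole 95% interval of the fit lay within a 1.5-fold change in either direction, against 84.7% of all probes tested. The exception was ATP5G3. Without the dye term, so that the spread between the orientations counted as error, the intervals of 37 of the 81 (45.7%) lay within that limit, against 47.1% of all probes.

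**Figure D1:**
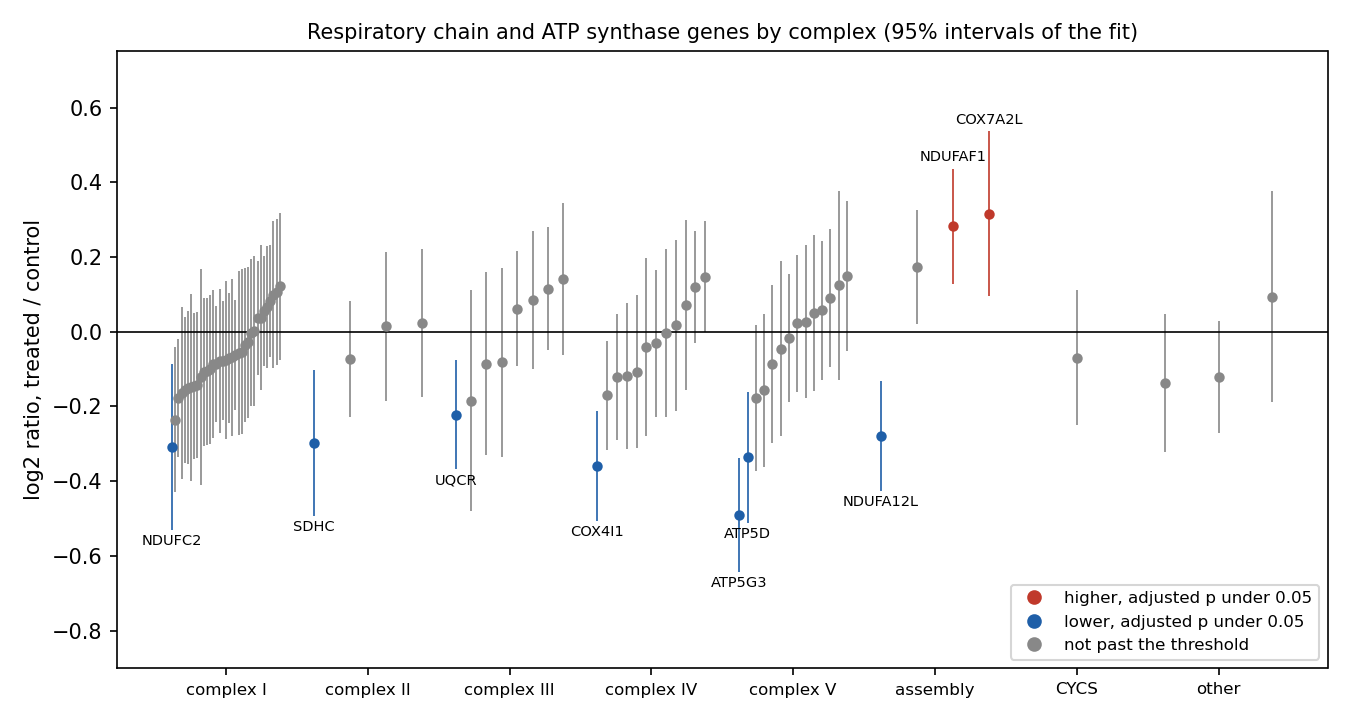
Log2 ratio of treated to control K562 cells (vertical axis) for the 81 tested genes, grouped by complex along the horizontal axis and ordered by value within each group; points are fitted values and bars their 95% intervals. The 7 genes called lower (blue) fall in complexes I to V and among the assembly factors, and the 2 called higher (red) are both assembly factors.

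The spread of the arrays sets the limit on these values. The dye term, the difference between the orientations, passed the same threshold for 49 of the 81 genes (60.5%), near the 58.2% of all probes. In 62 of the 81 genes (76.5%) the mean over arrays 1 and 2 and the mean over arrays 3 and 4 had opposite signs. Only 10 (12.3%) had the same sign on every measured array, against 25.2% of all probes. UQCRH, the hinge subunit of complex III, shows the extreme. Its log2 ratio was 1.26 and 1.42 on arrays 1 and 2 but -1.18 and -1.25 on arrays 3 and 4, and its fitted value was 0.06. The same alternation, with a dye term of at least 0.95, was found for the ATP synthase subunit gene ATP5O (ATP5PO), the complex IV subunit gene COX7C, the complex I subunit gene NDUFS5 and the complex III subunit gene UQCRQ. Across all probes, log2 ratios correlated at 0.81 between arrays 1 and 2 and at 0.94 between arrays 3 and 4, and from -0.29 to -0.12 between the orientations. The negative control spots varied more on arrays 1 and 2 than on arrays 3 and 4, so an effect of the dye and one of array quality cannot be told apart. The standard errors and adjusted p-values of the fit rest on differences between arrays of the same orientation. An exact sign-flip permutation test (two-sided) over 4 arrays cannot give a p below 0.125.

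**Figure D2:**
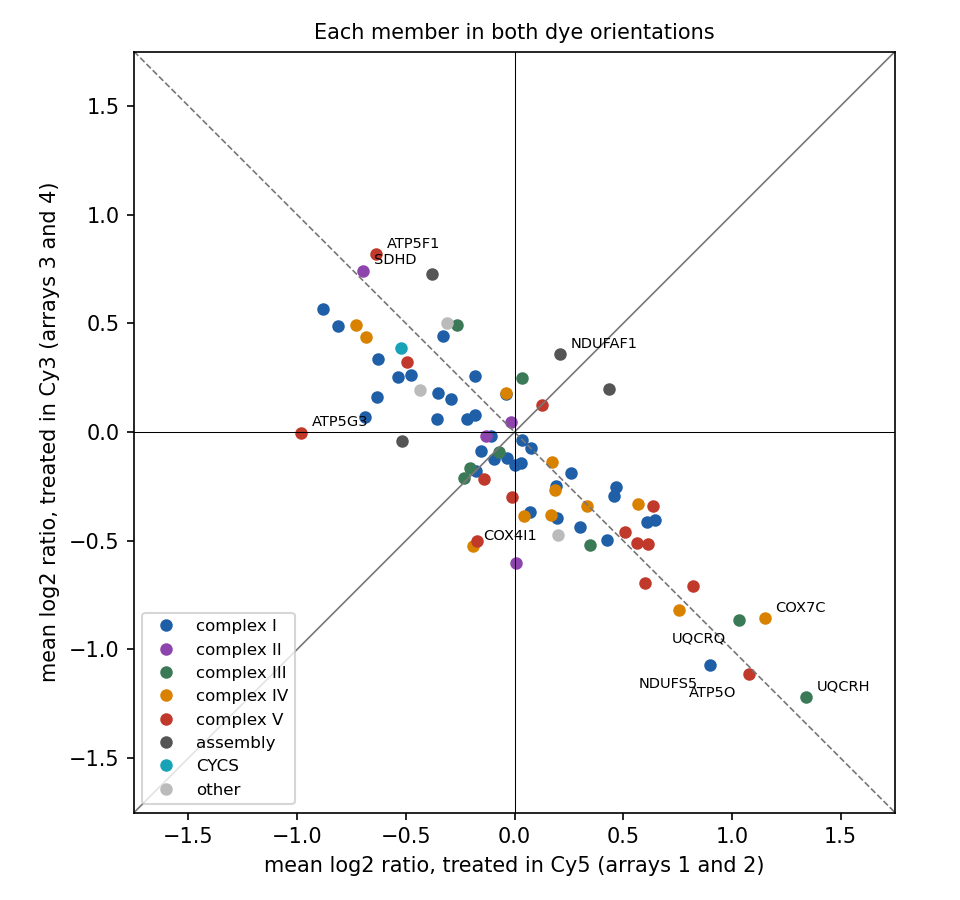
Mean log2 ratio on the arrays with treated RNA in Cy5 (horizontal axis) against that on the arrays with treated RNA in Cy3 (vertical axis) for the 81 tested genes, coloured by complex. Points on the solid diagonal have the same value in both orientations, and points on the dashed one have opposite values; 62 of the 81 genes have opposite signs.

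Complex I oxidises NADH and is the largest of the complexes. None of its 35 tested genes was higher and 1 was lower in treated cells, and their median log2 ratio was -0.08. The 7 core subunit genes, which carry the flavin and iron-sulfur clusters or the quinone site, ranged from -0.08 to 0.11, and none was called. NDUFV1, which binds NADH, had a log2 ratio of 0.11 (95% interval from -0.09 to 0.30), and its partner NDUFV2 had -0.07 (from -0.28 to 0.14). The 28 accessory subunit genes had a median of -0.09, and 22 of them lay below 0. NDUFC2, an accessory subunit of the membrane arm, was the gene called lower. Its log2 ratio was -0.42, -0.96, 0.21 and -0.07 on arrays 1 to 4, which gave a fitted value of -0.31 ± 0.50 (SD, n = 4 arrays) with an adjusted p of 0.037 (limma). It was low on the arrays with treated RNA in Cy5 and near 0 on average on the other pair, and the call was lost with median centring (-0.18, adjusted p = 0.16, limma), the processed signals and the marked spots kept. NDUFC1, its neighbour in the complex, had -0.24 and an adjusted p of 0.061 (limma) on 3 arrays, with the same split between orientations (-0.63 on array 2, and 0.19 and 0.14 on arrays 3 and 4). NDUFA9, an accessory subunit near the quinone site, was below 0 on all 4 arrays (-0.10, -0.25, -0.10 and -0.26) but did not pass the threshold (log2 ratio -0.18, adjusted p = 0.074, limma).

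Complex II, succinate dehydrogenase, links the TCA cycle to the chain. SDHC, a membrane anchor subunit, was the 1 gene of 4 that was called, and it was lower in treated cells. Its log2 ratio was 0.01 on array 2, -0.63 on array 3 and -0.58 on array 4, with the spot of array 1 left out, and the fitted value was -0.30 ± 0.35 (SD, n = 3 arrays; adjusted p = 0.027, limma). The fall was thus measured in the Cy3 orientation alone. With the marked spot included, array 1 gave -0.16, and the fitted value was -0.36 (adjusted p = 0.0096, limma). The call was lost with median centring and with the processed signals (-0.24 in both, adjusted p of 0.088 and 0.11, limma). The flavoprotein gene SDHA had a log2 ratio of -0.07, the iron-sulfur protein gene SDHB 0.01 and the other anchor gene SDHD 0.02. SDHA has near-identical pseudogene copies, and RNA of SDHA, SDHALP1 and SDHAP3 may bind to each other's probes, so these values are uncertain. SDHALP1 had -0.14 and SDHAP3 had 0.09, neither of them called.

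Complex III transfers electrons from ubiquinol to cytochrome c. Of its 8 genes, UQCR (UQCR11), a small subunit, was lower in treated cells and none was higher, and the median log2 ratio was -0.01. UQCR had log2 ratios of -0.25, -0.22, -0.24 and -0.19 on the 4 arrays. These values are almost the same in both orientations, and the fitted value was -0.22 ± 0.03 (SD, n = 4 arrays; adjusted p = 0.026, limma), a level in treated cells of 0.86 times that of control cells. The call was lost with median centring (adjusted p = 0.12, limma) and with the processed signals (adjusted p = 0.077, limma). The catalytic subunit genes CYC1 (cytochrome c1) and UQCRFS1 (the Rieske iron-sulfur protein) had -0.08 and 0.12, and neither was called. UQCRC1 and UQCRC2, the core proteins, had -0.19 and 0.14, again without a call. CYCS, the electron carrier between complexes III and IV, had -0.07 (95% interval from -0.25 to 0.11), with -0.33 and -0.72 on arrays 1 and 2 and 0.36 and 0.41 on arrays 3 and 4.

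Complex IV, cytochrome c oxidase, had 12 genes tested. COX4I1, the widely expressed isoform of subunit 4, was lower in treated cells and was the only 1 of the 12 that was called in this fit. Its log2 ratio was -0.19, -0.20, -0.48 and -0.58 on arrays 1 to 4. All 4 arrays were thus below 0, more so in the Cy3 orientation, and the fitted value was -0.36 ± 0.20 (SD, n = 4 arrays; adjusted p = 0.0032, limma). The level in treated cells was 0.78 times that of control cells. The probe for its isoform COX4I2 was not well above background on any array. COX7B came closest among the others, with -0.17 (adjusted p = 0.066, limma). Several subunits of this complex exist as a ubiquitous form and as a form of heart, muscle or testis. COX6A2, COX6B1, COX7A2, COX7B2 and COX8A had fitted log2 ratios from -0.12 (COX7B2) to 0.12 (COX8A), and none was called. COX6A2 and COX7B2 were dim, with mean log2 intensities of 9.45 and 9.77. Both were well above background on only 2 arrays in the treated channel, so their values are less certain. NDUFA4 (COXFA4), which was first counted in complex I, had -0.03.

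Complex V had 14 genes tested, of which ATP5G3 and ATP5D were lower in treated cells and none was higher. The median log2 ratio was 0.00285. ATP5G3, a gene for the proton-carrying ring, gave -1.03 and -0.93 on arrays 1 and 2 and 0.07 and -0.07 on arrays 3 and 4. The fitted value of -0.49 ± 0.57 (SD, n = 4 arrays; adjusted p = 0.00079, limma) was the lowest of all 81 genes, but it rests on the Cy5 orientation alone. The dye term of this gene was -0.49. ATP5G1 and ATP5G2 had fitted values of -0.16 and 0.03 on 3 arrays and were not called. The difference ATP5G3 minus ATP5G1 within an array was -0.92, 0.28 and 0.32 on arrays 2, 3 and 4, and weighting the orientations equally it was -0.31. Its sign differed between the orientations, and the difference itself was not tested. ATP5D, part of the stalk of the F1 head, was below 0 on all 4 arrays (-0.21, -0.14, -0.33 and -0.67), with a fitted value of -0.34 ± 0.24 (SD, n = 4 arrays; adjusted p = 0.0099, limma). The catalytic head genes ATP5A1 (ATP5F1A) and ATP5B (ATP5F1B) had -0.18 and 0.06 and were not called.

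Among the 4 assembly factors, NDUFAF1 and COX7A2L were higher and NDUFA12L was lower in treated cells. NDUFAF1, which helps to build the membrane arm of complex I, had log2 ratios of 0.23, 0.19, 0.27 and 0.45 on the 4 arrays. All 4 were above 0, and the fitted value was 0.28 ± 0.12 (SD, n = 4 arrays; adjusted p = 0.012, limma), a 1.22-fold higher level. NDUFA12L, a late-acting complex I assembly factor, had -0.55, -0.49, -0.09 and 0.01, with a fitted value of -0.28 ± 0.28 (SD, n = 4 arrays; adjusted p = 0.011, limma). It was low in the Cy5 orientation and near 0 in the other, and with the processed signals it had -0.11 (adjusted p = 0.34, limma). The difference NDUFAF1 minus NDUFA12L was 0.78, 0.67, 0.35 and 0.44 on the 4 arrays. Its sign follows from the choice of a gene called higher and one called lower on these arrays, and it was not tested. COX7A2L, named as a complex IV subunit but a factor for joining complexes III and IV, had 0.43, 0.06 and 0.34 on arrays 2, 3 and 4. Its fitted value was 0.32 ± 0.19 (SD, n = 3 arrays; adjusted p = 0.034, limma), and with the marked spot of array 1 included, which gave 0.74, it was 0.33. With median centring the value was 0.15 (adjusted p = 0.28, limma), and with the processed signals the call was lost too (0.35, adjusted p = 0.071, limma). The fourth, ATP5S (DMAC2L), had 0.17 and an adjusted p of 0.072 (limma).

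**Figure D3:**
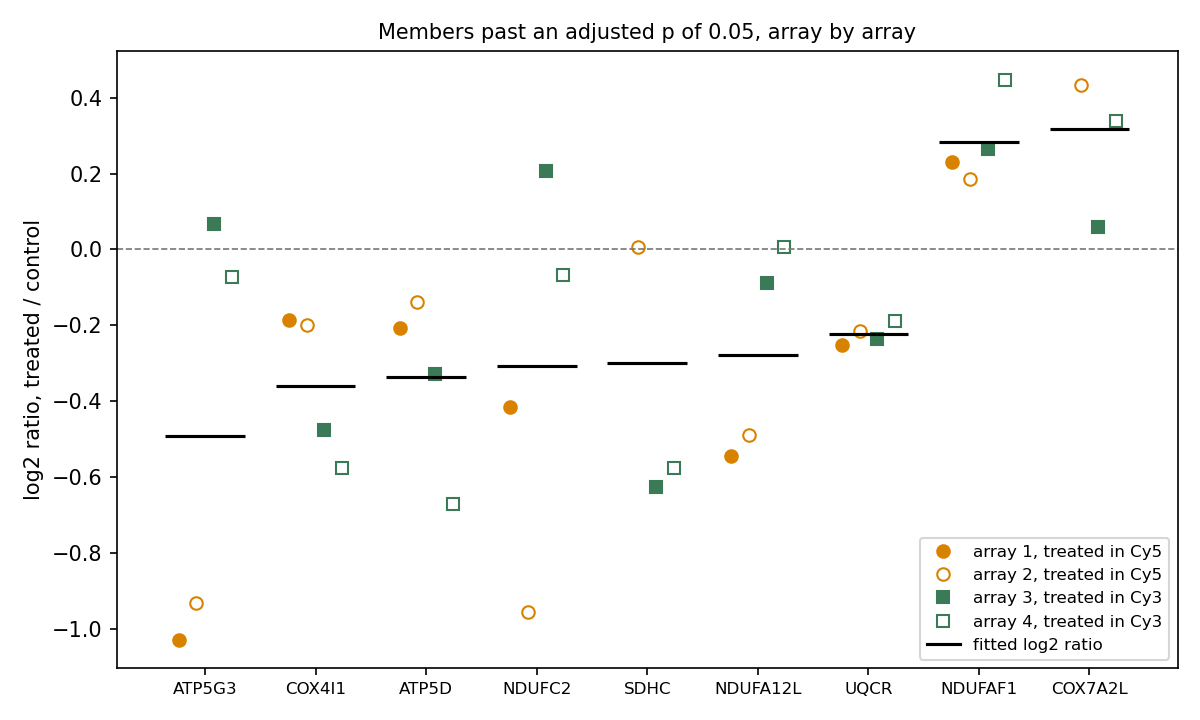
Log2 ratio of treated to control cells (vertical axis) on each array for the 9 genes past an adjusted p of 0.05; circles are arrays with the treated RNA in Cy5, squares those with it in Cy3, and black lines the fitted values. COX4I1, ATP5D, UQCR, NDUFAF1 and COX7A2L have the same sign on every measured array, while ATP5G3, NDUFC2, SDHC and NDUFA12L are near 0 or change sign in one orientation.

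Of the 9 genes called, 5 had the same sign on every measured array (COX4I1, ATP5D, UQCR, NDUFAF1 and COX7A2L), and the dye term was called for the other 4. Leaving out single arrays bore on these calls unevenly. Without array 1, 81 genes could be tested, and without any of the others only the 43 with 4 arrays. Without array 1, 3 genes were called higher and 10 lower (46.1% of all probes called), and without array 2, 3 and 7 (40.7%). Without array 3, 0 were called higher and 3 lower (21%), and without array 4, 0 and 1 (16.1%). In a fit without the dye term none of the 83 genes tested was called (smallest adjusted p 0.283, limma) and 3 had an unadjusted p under 0.05, against 0.627% called over all probes. ATP5G3, COX4I1, ATP5D and NDUFAF1 were called with each of the 3 other normalizations tried (median centring, Feature Extraction's processed signals and the series table), and the other 5 lost the call with at least 1 of them. The series table holds the ratios of the processed signals, so it is not a separate check. With the dye term, 13 of the 81 had an unadjusted p under 0.05. With the marked spots kept, 8 of 83 genes were called, all of them among the 9, against 32.8% of all probes.

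The complexes differed from each other in how their genes followed the dye orientation, and their fitted medians lay close together. The fitted median log2 ratio was -0.08 for complex I, -0.03 for complex II, -0.01 for complex III, -0.04 for complex IV and 0.00285 for complex V. On the arrays with treated RNA in Cy5 the median over complex V genes was 0.32, and on the others it was -0.40. Complex IV gave 0.17 and -0.33, while complex I gave -0.09 and -0.07. The median log2 intensity of the tested genes was 16.5 for complex V, 16.3 for complex IV and 15.8 for complex I. Whether the dye pattern goes with brightness or with the complex was not tested. The dye term was called for 10 of 14 complex V genes, 7 of them with the higher value in Cy5, for 8 of 12 complex IV genes, 6 in that direction, and for 19 of 35 complex I genes, 9 in that direction. Among genes measured on all 4 arrays, the median of 8 complex V genes minus that of 15 complex I genes was 0.51, 0.27, -0.37 and -0.39 on arrays 1 to 4, which averages to 0.0046 ± 0.45 (SD, n = 4 arrays). The corresponding difference of complex IV (7 genes) averaged -0.06 ± 0.44 and that of complex III (5 genes) -0.04 ± 0.31. Complexes III, IV and V were thus not set apart from complex I beyond the spread of the arrays. For complexes IV and V that spread includes the difference between the orientations, so a small difference could not be seen this way. Complex II, with 1 gene measured on all 4 arrays, was not compared in this way.

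**Figure D4:**
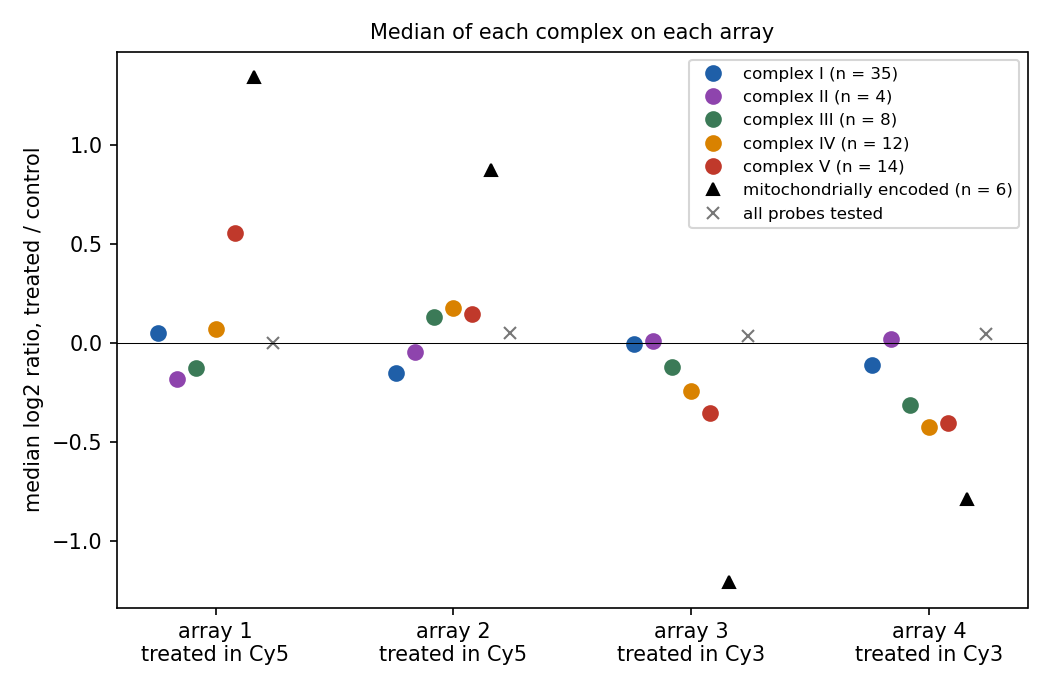
Median log2 ratio of treated to control cells (vertical axis) over the tested genes of each complex on each array (horizontal axis), with the mitochondrially encoded genes and all probes tested; n is the number of genes tested, and those with a marked spot are missing from that array. Complexes IV and V and the mitochondrially encoded genes lie above 0 on arrays 1 and 2 and below 0 on arrays 3 and 4.

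Of the 13 subunit genes of mitochondrial DNA, 6 had a probe (ND1, ND2, ND3, ND6, COX1 and CYTB), and their median log2 ratio was 1.35, 0.88, -1.21 and -0.79 on arrays 1 to 4. Fitted values of ND1, ND2, ND3, COX1 and CYTB lay between 0.07 and 0.18, and none was called. ND2, ND3, COX1 and CYTB were above 0 on arrays 1 and 2 and below 0 on arrays 3 and 4, whereas ND1 had 0.40, -0.25 and 0.07 on arrays 2, 3 and 4. ND6, the only messenger coded on the light strand of the mitochondrial genome, was lower in treated cells, with -0.32, -1.40 and -0.86 on arrays 2, 3 and 4 and a fitted value of -0.72 ± 0.54 (SD, n = 3 arrays; adjusted p = 0.0030, limma).

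Genes that build, feed and regulate the chain were read in the same fit. In it 24.3% of all probes tested were called higher and 13% lower. The counts of these lists were not tested against those shares. Of 21 further assembly and maturation factors tested, 1 was higher and 3 were lower (median log2 ratio -0.08). SCO2 and SCO1, copper chaperones of complex IV, had -0.52 and -0.25 and were below 0 on all 4 arrays. SCO1 was not called with the other normalizations tried. COX11, a copper factor of the same complex, had -0.29 ± 1.23 (SD), with opposite signs in the orientations, and lost its call with median centring. COX10, a heme A synthesis enzyme, was called higher with 0.21, but was above 0 on arrays 1 and 2 (0.58 and 0.52) and below 0 on arrays 3 and 4 (-0.25 and -0.02), and with Feature Extraction's processed signals it had 0.03 (adjusted p = 0.79, limma). Of 19 TCA cycle and pyruvate dehydrogenase genes, 3 were higher and 3 lower. The pyruvate dehydrogenase kinase gene PDK3 had -0.45 and was below 0 on all 4 arrays, whereas PDK1 had 0.26, below 0 on array 1 only. PDHX, a structural component of the complex, and the phosphatase gene PDP2 had 0.24 and 0.23 and were above 0 on all 4 arrays. PDK3 and PDP2 were well above background on only 2 arrays in each channel, so their other values lie near the background. The succinate-CoA ligase genes SUCLG2 and SUCLA2 had -0.26 and -0.22. SUCLG2 was at 0.00079 on array 1 and below 0 on the other arrays. SUCLA2 was below 0 on arrays 1 and 2 (-0.63 and -0.51) and above 0 on arrays 3 and 4 (0.04 and 0.22). With the processed signals 0 genes of this list were called higher (adjusted p, limma, of 0.071 for PDHX, 0.24 for PDP2 and 0.065 for PDK1), and with median centring SUCLG2 and SUCLA2 lost their calls.

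Among 15 regulators of mitochondrial biogenesis and transcription, 1 was higher and 5 were lower (median -0.05), where 37.4% of all probes tested were called. TFB2M, a mitochondrial transcription factor, had a log2 ratio of -0.44, the mitochondrial helicase gene PEO1 (TWNK) -0.34, and the probe listed as GABPB2 -0.70. That probe lies on chromosome 15, and GABPB2 is an older name of GABPB1, so it may measure GABPB1. PEO1 was below 0 on all 4 arrays but was not called with median centring, while TFB2M and the GABPB2 probe were near 0 on arrays 3 and 4. MTERF (MTERF1), a mitochondrial transcription termination factor, was the gene called higher, with 0.29. It was below 0 on arrays 1 and 2 (-0.21 and -0.08) and above 0 on arrays 3 and 4 (0.56 and 0.88), and with the processed signals it had 0.16 (adjusted p = 0.48, limma). Of 14 genes for ATP and phosphate exchange, uncoupling and ATP synthase regulation, 0 were higher and 4 lower, the largest falls being those of the adenylate kinase gene AK3 (-0.49 ± 1.48, SD, n = 4 arrays), the outer membrane channel gene VDAC1 (-0.29) and the uncoupling protein gene UCP2 (-0.26). AK3 had opposite signs in the orientations. UCP2 had 0.35 and -0.01 on arrays 1 and 2 and -0.55 and -0.83 on arrays 3 and 4. Its fall was thus measured in the Cy3 orientation alone, and UCP2 was not called with the other normalizations tried. Of 16 genes for other electron carriers and ubiquinone synthesis, 2 were higher and 1 lower. CABC1 (COQ8A), needed for ubiquinone synthesis, was above 0 on all 4 arrays, with 0.56 ± 0.33 (SD, n = 4 arrays; adjusted p = 0.00042, limma). ETFDH, which passes electrons from fatty acid oxidation to ubiquinone, had 0.40 ± 0.39 (adjusted p = 0.0019, limma). It was near 0 on arrays 1 and 2 (0.08 and 0.05) and higher on arrays 3 and 4 (0.68 and 0.80). PDSS1, which makes the tail of ubiquinone, was below 0 on all 4 arrays with -0.55 ± 0.27 (adjusted p = 0.00081, limma).

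Promoter motifs were counted as a feature that the choice by name did not use. Of 85 genes of the complexes, cytochrome c and the assembly factors, 69 matched by symbol to a RefSeq promoter of 300 bases (GRCh38.p14). The core of the NRF1 motif, GCGCATGC, was found on either strand in 18.8% of them, against 3.27% of all 27305 promoters in the table. The ETS motif CCGGAAG, bound by GABPA, was found in 26.1% against 10.7%, and the YY1 motif AAGATGGC in 14.5% against 3.03%. None of the 3 contains another. At least 1 of them was found in 33 of the 69, and 36 held none. Promoters of 5 of the 9 called genes were in the table, and the ETS motif was found in 2 of these, those of COX4I1 and UQCR. A match of letters is a description of the sequence and not of a bound site.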

How the data were processed

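Transcripts of AC-1041-treated (4 h) and control K562 cells were compared on 4 two-colour arrays. The files hold, as the authors deposited them from Feature Extraction 9.5.1.1, the unnormalized intensity of every spot and of its local background in each channel. Deposited beside these are processed intensity values and the log10 ratio computed from them. In the deposited table of the series the log10 ratios have a median of 0 on each array and match those of the arrays once the sign is turned on arrays 3 and 4.

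The intensities were corrected with normexp (offset 50) over all spots and normalized within each array by loess (span 0.3). Control spots were left out, and spots marked as non-uniform or population outliers had no weight. Probes that stood well above background on 2 or more arrays in either channel were fitted with limma 3.58.1 in R 4.3.3 (treatment and dye orientation), with Benjamini-Hochberg adjustment over all probes tested (8852). In simulated data for this comparison with those 8852 probes, the test recovered 89.5% of 200 probes given a log2 ratio of 1. The changes reported here are smaller, and these simulated arrays vary independently. Positions are those of the files (hg18), and symbols were updated through RefSeq accessions or names.

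The genes, lists and alternatives were chosen with earlier results of these data known. Genes named with values are the called members (up to 5 in each direction per complex), all of complex II, CYC1 and CYCS, duplicate or tissue isoforms, called assembly factors, and up to 3 called genes in each direction from each other list. Others were named after their values were seen, for a low p, a role in catalysis or a large dye term. Slide and scan date were common to all arrays and give no block. Alternatives were other background corrections, normalizations, filters, thresholds, variance models and averages over arrays or probes, and each array left out in turn.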

Additional observations from a re-analysis of the deposited data

Results flagged for a closer look

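NDUFS7, which codes for a core subunit of complex I that holds an iron-sulfur cluster, had 1 array that lay apart. The log2 ratio, treated to control, was 0.29 on array 3, against -0.20, -0.23 and -0.17 on arrays 1, 2 and 4, and the gap was 0.87 of the whole range. The gene was not called. It was 1 of 43 genes measured on 4 arrays that were examined in this way. Chance marks about 1 in 20 if arrays vary independently, but here arrays of the same orientation correlated, so that rate may not apply.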

How the results depend on the processing

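Among the 9 genes called, no alternative tried turned a direction. Of the counts of 2 genes higher and 7 lower, Feature Extraction's processed signals and the series table each gave 1 and 4 (NDUFC2, UQCR, SDHC, COX7A2L and NDUFA12L lost their calls), an adjusted p threshold of 0.01 gave 0 and 3, and the fit without a dye term gave 0 and 0. Arrays of opposite dye averaged as pairs gave 1 gene higher in both pairings, with 2 of the 9 genes not fitted. With single arrays left out, the counts ranged from 0 to 3 higher and from 1 to 10 lower, but 43 genes in place of 81 could be tested without array 2, 3 or 4. With marked spots kept, 2 were higher and 6 lower, all 8 of them among the 9. The medians of the complexes moved by less than 1 SD between arrays under every alternative. That SD includes the difference between the orientations, which the fitted values take out, so it is a wide limit and does not show stable medians. With median centring the median over the genes was -0.15 in place of -0.06, and that of complex V was -0.14 in place of 0.00285. The median over all probes tested was 0.05 with median centring in place of 0.02, and 33.4% of them were called. NDUFC2, UQCR, SDHC and COX7A2L lost their calls with it, and the other 5 of the 9 kept theirs. Calls that further genes may have gained with it are not counted here. In the other lists, median centring gave 3 in place of 5 regulators lower, 1 in place of 3 assembly factors lower, and 5 in place of 2 electron carrier and ubiquinone genes higher, while the processed signals gave 0 in place of 3 TCA cycle genes higher. Each array held both treated and control RNA, so every log2 ratio was already a paired comparison within an array. All samples form 1 group, and no further pairing between arrays is stated. With 4 arrays on 1 slide, brightness against background and the marked spots of array 1 limit the precision, and a p above the threshold does not show that a gene did not change.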
